A study of Rattus norvegicus with 14 samples.

Results

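Peroxisomes are small organelles that break down very long chain and branched fatty acids and make the first steps of ether lipids. Peroxins build them: docking and receptor proteins bring finished enzymes into the matrix, others insert membrane proteins or divide the organelle. PPARG, the fatty acid receptor whose DNA-binding and ligand-binding parts are kept in the PAX8-PPARG fusion protein (PPFP), is activated by the drug pioglitazone, and its relative PPARA is known for raising peroxisomal beta-oxidation genes in rodent liver. The values described here are those of 36 genes of this organelle, among 16816 gene symbols counted by RNA-seq. They were chosen by name as 14 peroxins, 6 peroxisomal membrane proteins of transport and 16 peroxisomal lipid enzymes, and all 36 had a row of counts. Assembly genes and enzymes were counted apart.

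The cells were PCCL3, a rat thyroid follicular line grown with thyrotropin and insulin. PPFP cells were stably transfected with Myc-tagged human PPFP, and EV cells with the empty vector, so each arm is 1 transfected line. Both lines received 1 μM pioglitazone or its vehicle for 16 hours, which gave 4 groups of 3 libraries and 12 libraries in all. The 3 libraries of a group came from 3 independent experiments on the same lines, and the p-values measure the spread between those experiments only. A difference between PPFP and EV cells therefore also holds whatever else separates the 2 lines.

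Each library held 23724703 to 35240176 counts. Pparg, which marks the transgene, was at 1.23 to 2.81 CPM (read counts scaled to the size of the library) in the 6 EV libraries and 46.7 to 61.2 CPM in the 6 PPFP libraries, and the counts do not say how many of these reads came from the human sequence. All 9 thyroid markers had a row, Slc26a4 stayed at 1.69 CPM or less, and their summed level was 10200 to 14100 CPM over the EV libraries. In the PPFP libraries it was 13300 to 14000 CPM with vehicle and 10000 to 10200 CPM with pioglitazone. Of the 6 adipocyte markers, 5 had a row. Their sum was 9.4 to 13.8 CPM over the EV libraries. In the PPFP libraries it was 714 to 735 CPM with vehicle and 938 to 959 CPM with pioglitazone, almost all of it Cfd, while Lep and Retn were at 0 in every library. Of the 6 leukocyte markers with a row, Ptprc, Csf1r, Itgam and Emr1 had at most 3 counts in any library. Cd14 was at 3.52 to 6.44 CPM, and Cd68 was higher in all PPFP libraries (0.807 to 1.31 CPM) than in all EV libraries (0.378 to 0.79 CPM). The leukocyte sum was 5.27 to 7.09 CPM in EV and 4.37 to 5.95 CPM in PPFP libraries. Of the 5 fibroblast markers Col1a2, Lum and Dcn had at most 3 counts, Col1a1 was at 0.869 to 3.55 CPM, and Pdgfra was at 20.2 to 22.7 CPM in EV libraries and at 19 to 28.6 CPM with vehicle and 25.1 to 32.1 CPM with pioglitazone in PPFP libraries. The fibroblast sum was 22.4 to 24.2 CPM in EV and 20.4 to 34.5 CPM in PPFP libraries. The thyroid and adipocyte sums, Cd68 and Pdgfra thus moved with groups in which peroxisome genes below also changed, and their part in those changes was not tested. In bulk RNA, fewer cells that express a gene and less of its RNA per cell cannot be told apart.

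The response of PPFP cells to pioglitazone was compared first, since it holds the line constant. Of 34 members tested, Pex11a passed the filter on low counts only through the libraries where it was high, so it is counted apart. Of the other 33 members, 8 (24.2%) rose and 2 (6.06%) fell. Of all 10064 genes tested in these libraries, 14.8% were called, 7.63% higher and 7.13% lower. A gene was called when the Benjamini-Hochberg adjusted p of edgeR's quasi-likelihood test was under 0.05. Among the peroxins other than Pex11a, Pex13, Pex16 and Pex19 rose and Pex5l fell, so 4 of 13 were called. Among the transport proteins Abcd3 and Pxmp4 rose and Abcd2 fell, 3 of 6. Among the enzymes Gnpat, Hsd17b4 and Eci2 rose, 3 of the 14 tested. The median log2 fold change was 0.06 over these 13 peroxins, 0.01 over the transport proteins and -0.01 over the enzymes, beside 0.01 over all genes tested. Rises and falls can cancel in such a median. The called changes lay in 10 of the 33 members.

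Libraries of the same experiment deviated together within each line, so the fit that pairs them by experiment stands beside these counts. It called 18 of the 33 members other than Pex11a (54.5%), 13 higher (39.4%) and 5 lower (15.2%). Of all genes it called 51.6%, 27.7% higher and 23.9% lower, so the total share of members called was close to that of all genes. The calls were 7 of 13 peroxins (53.8%), 3 of 6 transport proteins (50%) and 8 of 14 enzymes (57.1%). The added members had small changes, which are given with the members below.

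**Figure D1:**
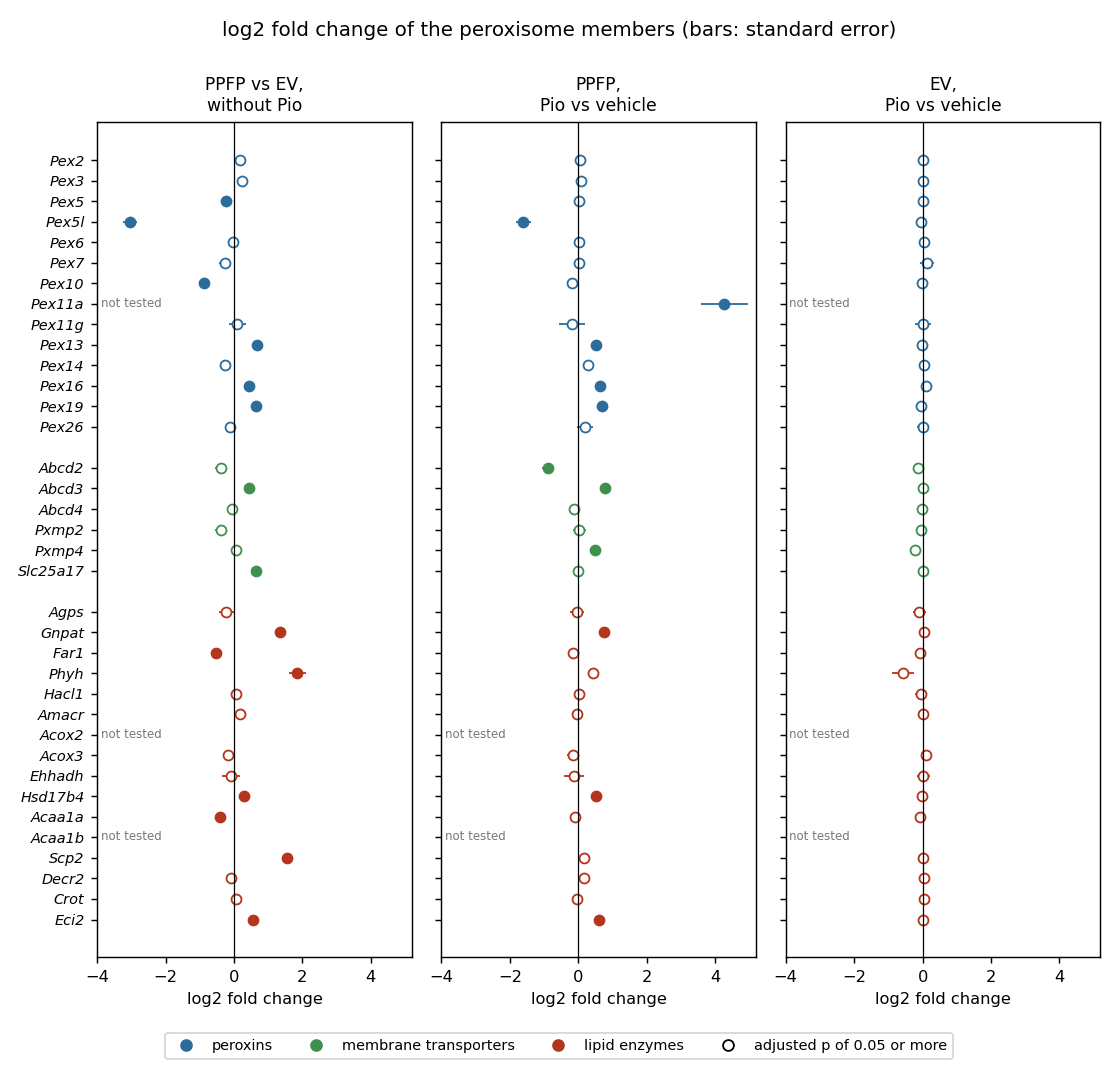
log2 fold change of each member (x axis) in PPFP versus EV cells without pioglitazone and with versus without pioglitazone in PPFP and in EV cells. Points are estimates with their standard errors, coloured by class, and filled points have an adjusted p under 0.05. Pex5l is filled to the left in both PPFP panels, Pex11a lies farthest to the right with pioglitazone, and no point of the EV panel is filled.

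The peroxins that insert membrane proteins and dock cargo moved as follows. Pex19, the soluble chaperone that carries newly made membrane proteins to the peroxisome, was at 116, 119 and 115 CPM in EV cells and 112, 117 and 107 CPM in EV cells with pioglitazone. It was at 171, 184 and 182 CPM in PPFP cells and at 281, 296 and 287 CPM in PPFP cells with pioglitazone. The 2 EV groups overlapped, the PPFP group lay above them without overlap, and the PPFP group with pioglitazone lay above all other libraries. The rise with pioglitazone in PPFP cells was 1.61-fold (log2 0.69 ± 0.06 (SE), adjusted p = 0.001), and within the 3 experiments it lay between 0.66 and 0.72 on the log2 scale. Without pioglitazone Pex19 was already 1.56-fold higher in PPFP than in EV cells (adjusted p = 0.00046).

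Pex16, a membrane peroxin that works with Pex19 in the same insertion step, was at 25.8, 24.4 and 31.9 CPM in EV cells and 28.9, 28.4 and 31.5 CPM in EV cells with pioglitazone. In PPFP cells it was at 37.4, 37.3 and 34.1 CPM, and with pioglitazone at 56.2, 56.5 and 56.6 CPM. The order of the groups was that of Pex19. Pioglitazone raised it 1.56-fold in PPFP cells (log2 0.64 ± 0.06, adjusted p = 0.0015). Its difference between the lines without pioglitazone was 1.35-fold (adjusted p = 0.016), a call that was lost without EV replicate 1 or without PPFP replicate 2, where the adjusted p reached 0.066. Pex3, the membrane anchor of Pex19, was not called here. It was at 32.7 ± 2.01 CPM (SD, n = 3) without and 34.7 ± 1.4 CPM with pioglitazone in the PPFP line. The log2 response was 0.09 ± 0.07 (SE), with an adjusted p of 0.44.

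Pex13, a membrane subunit of the docking complex that receives enzyme cargo, was at 38.6, 37.7 and 40.1 CPM in EV cells and 38.3, 38.1 and 39.3 CPM in EV cells with pioglitazone. It reached 62.2, 60.0 and 59.5 CPM in PPFP cells and 90.4, 85.0 and 86.1 CPM in PPFP cells with pioglitazone. Again the EV groups overlapped and the other groups were apart from them and from each other. The pioglitazone response was 1.44-fold (log2 0.53 ± 0.05, adjusted p = 0.0015) and the difference between the lines without the drug 1.58-fold (adjusted p = 0.00035). Pex14, its partner in docking, was at 61.4 ± 6.04 CPM in PPFP cells and 75.3 ± 9.24 CPM with pioglitazone, and these groups overlapped. Its log2 change of 0.30 ± 0.13 (SE) had an adjusted p of 0.18, and of 5e-06 when libraries were paired by experiment, where the 3 differences lay between 0.24 and 0.33.

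Pex11a, an inducible membrane protein of peroxisome division, was at the edge of detection. It had 0 counts in all 6 EV libraries, 0, 1 and 1 counts in PPFP cells, and 16, 21 and 11 counts in PPFP cells with pioglitazone. All libraries of that last group lay above all other libraries. The summed counts gave a ratio of 22.4 with versus without pioglitazone in PPFP cells (95% counting interval 5.88 to 191). Against EV cells with pioglitazone the level was at least 6.16-fold higher, taking 3 counts per library as the floor of a group at 0. The gene passed the filter on low counts only through the libraries where it was high, so its call (adjusted p = 0.0097) adds nothing to the difference in counts. Pex11g, another member of that family, was at 5.6 ± 1.59 CPM in PPFP cells and 4.91 ± 2.1 CPM with pioglitazone (adjusted p = 0.82), and all 4 groups overlapped.

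Pex5l was the only peroxin that fell with pioglitazone under the unpaired test. It resembles the cargo receptor Pex5, but its product is best known in neurons as an auxiliary subunit of HCN channels. It was at 62.6, 73.6 and 53.5 CPM in EV cells and 62.2, 63.1 and 58.3 CPM in EV cells with pioglitazone. In PPFP cells it was at 6.13, 9.69 and 7.01 CPM, and with pioglitazone at 2.04, 2.61 and 2.78 CPM. The PPFP libraries lay far below the EV libraries, and those with pioglitazone lay lowest without overlap. The level was 8.19-fold lower in PPFP than in EV cells without pioglitazone (log2 -3.03 ± 0.21, adjusted p = 3.1e-05), 24.1-fold lower with it (adjusted p = 1.6e-06), and pioglitazone lowered it 3.05-fold in PPFP cells (adjusted p = 0.0061).

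Of Pex5, Pex7, Pex6 and Pex26, Pex5 alone was called between the lines. Pex5, the receptor for most matrix enzymes, was at 64.2 ± 3.36 CPM in PPFP cells and 65 ± 2.56 CPM with pioglitazone, against 76.6 ± 2.2 CPM in EV cells (1.18-fold lower in PPFP than EV cells, adjusted p = 0.038). That call was lost in 7 of 14 alternatives, with adjusted p up to 0.16, and pairing by experiment was one of them (adjusted p = 0.11, and 0.1 with pioglitazone in both lines). Pex7, the receptor for another kind of import signal, was at 6.69 ± 0.492 CPM in PPFP cells and 6.73 ± 0.474 CPM with pioglitazone. Pex6, an ATPase that recycles Pex5, and its membrane anchor Pex26 showed log2 responses of 0.01 ± 0.14 and 0.20 ± 0.23 (SE). Pex26 was called only when paired by experiment (adjusted p = 0.0031).

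Of the ubiquitin ligase subunits, Pex10 differed more between the lines than Pex2. Pex10 was at 28.9, 32.6 and 27.1 CPM in EV cells and 28.7, 32.1 and 27.1 CPM in EV cells with pioglitazone. In PPFP cells it was at 15.1, 15.8 and 16.4 CPM and with pioglitazone at 12.7, 14.5 and 14.7 CPM. All PPFP libraries lay below all EV libraries. It was 1.85-fold lower without pioglitazone (adjusted p = 0.00057) and 2.05-fold lower with it (adjusted p = 0.00027), while the pioglitazone response in PPFP cells was log2 -0.17 ± 0.10 (SE), with adjusted p of 0.31 unpaired and 0.047 paired. Pex2 stayed between 45.2 and 58 CPM in all 12 libraries.

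**Figure D2:**
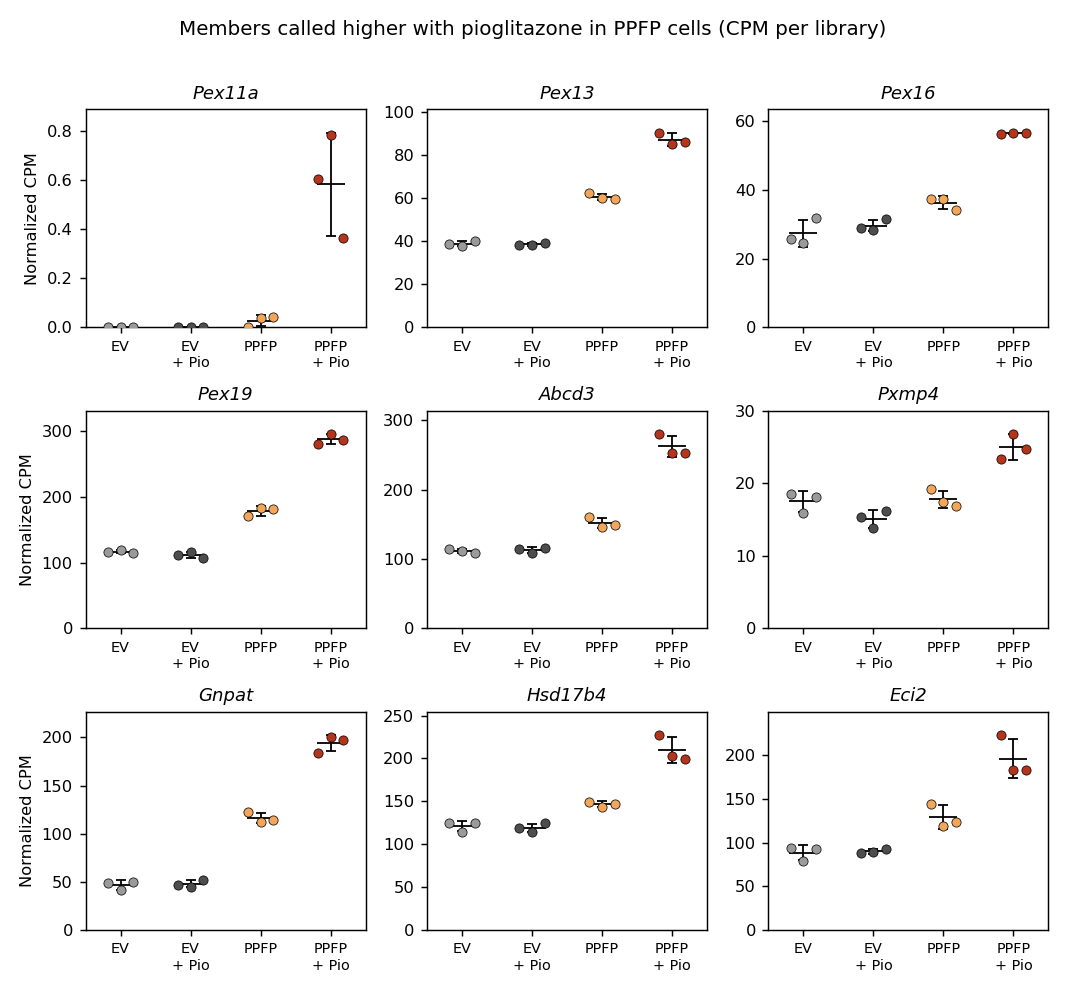
Normalized CPM per library (y axis, each panel on its own scale from 0) of the 9 members called higher with pioglitazone in PPFP cells, in EV and PPFP cells without and with pioglitazone. Points are libraries and bars are the mean and SD of 3. In every panel the PPFP group with pioglitazone is the highest and does not overlap another group, and the EV groups without and with pioglitazone overlap or are both at 0.

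Among the membrane proteins of transport, Abcd3 showed the clearest response. Abcd3, a transporter that brings fatty acyl-CoA into the peroxisome and is one of its most abundant membrane proteins, was at 115, 112 and 109 CPM in EV cells and 115, 109 and 116 CPM in EV cells with pioglitazone. It was at 160, 146 and 149 CPM in PPFP cells and 280, 253 and 253 CPM in PPFP cells with pioglitazone. The groups were ordered as for Pex19, with overlap of the EV groups only. Pioglitazone raised it 1.73-fold (log2 0.79 ± 0.06, adjusted p = 0.00073), and it was 1.37-fold higher in PPFP than in EV cells without the drug (adjusted p = 0.0024).

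Pxmp4, a small membrane protein of the Pxmp2 family, was at 18.5, 15.9 and 18.1 CPM in EV cells, 15.3, 13.8 and 16.2 CPM in EV cells with pioglitazone and 19.2, 17.4 and 16.9 CPM in PPFP cells. EV cells without the drug overlapped both other groups. In PPFP cells with pioglitazone it was at 23.4, 26.8 and 24.7 CPM, above all of them. The response was 1.40-fold (log2 0.49 ± 0.09, adjusted p = 0.013), and its adjusted p rose to as much as 0.069 when PPFP replicate 2 or 3 was left out on either side.

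Abcd2, a transporter of very long chain acyl-CoA, moved the other way. It was at 12.7, 13.3 and 15.4 CPM in EV cells, 11.3, 11.2 and 15.3 CPM in EV cells with pioglitazone and 7.85, 12.3 and 11.1 CPM in PPFP cells. With pioglitazone PPFP cells held 5.18, 5.97 and 5.7 CPM, below every other library. The response was 1.85-fold lower (log2 -0.88 ± 0.19, adjusted p = 0.025). This call was lost without any 1 of PPFP replicates 2 and 3 without pioglitazone or of the 3 libraries with it, with adjusted p up to 0.10, and the fold change stayed between log2 -1.07 and -0.76.

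Slc25a17, the carrier of coenzyme A and related cofactors, differed between the lines. It was 1.55-fold higher in PPFP than in EV cells without pioglitazone (83.8 ± 6.81 against 54.9 ± 3.5 CPM, adjusted p = 0.0017), while its log2 response in PPFP cells was -0.01 ± 0.09 (SE). Pxmp2, a membrane channel, and Abcd4, known mainly for cobalamin transport from lysosomes, had no call in any comparison. They were at 2.04 to 3.72 and 21.4 to 31.6 CPM over the 12 libraries.

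The enzymes of ether lipid synthesis did not move together. Gnpat, which adds the first acyl chain, was at 48.7, 40.9 and 49.8 CPM in EV cells and 46.7, 44.5 and 52 CPM in EV cells with pioglitazone. It was at 122, 112 and 114 CPM in PPFP cells and 184, 200 and 197 CPM in PPFP cells with pioglitazone. The PPFP groups lay apart from each other and from the EV libraries. Gnpat was 2.54-fold higher in PPFP than in EV cells without the drug (log2 1.34 ± 0.10, adjusted p = 3.9e-05), and pioglitazone raised it a further 1.67-fold in PPFP cells (log2 0.74 ± 0.06, adjusted p = 0.001). Agps, which exchanges that acyl chain for an alkyl chain in the next step, stayed between 4.92 and 8.29 CPM with overlap of all groups. Far1, which makes the fatty alcohol for this step, was 1.45-fold lower in PPFP cells (34.9 ± 4.89 against 51.5 ± 1.83 CPM, adjusted p = 0.0055). Its log2 response to pioglitazone in PPFP cells was -0.14 ± 0.11 (SE), with adjusted p of 0.47 unpaired and 0.035 paired.

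Of the enzymes for branched chains, Phyh stood out in PPFP cells. Phyh, the hydroxylase that starts alpha-oxidation of phytanic acid, was low: 0.67, 0.77 and 0.514 CPM in EV cells and 0.432, 0.32 and 0.574 CPM in EV cells with pioglitazone, from 10 to 23 counts per library. It was at 2.13, 2.48 and 2.41 CPM in PPFP cells and 2.87, 3.28 and 3.21 CPM with pioglitazone, from 57 to 97 counts. The PPFP groups overlapped neither each other nor the EV groups. It was 3.62-fold higher in PPFP than in EV cells without pioglitazone (log2 1.85 ± 0.24, adjusted p = 0.00066) and 7.21-fold higher with it (adjusted p = 8.9e-05). The response within PPFP cells was log2 0.42 ± 0.14 (SE), with adjusted p of 0.10 unpaired and 0.017 paired. Hacl1, the lyase that follows Phyh, and Amacr, the racemase that prepares branched chains for beta-oxidation, had log2 responses of 0.01 ± 0.06 and -0.04 ± 0.06 (SE) in PPFP cells. Neither was called in any comparison.

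**Figure D3:**
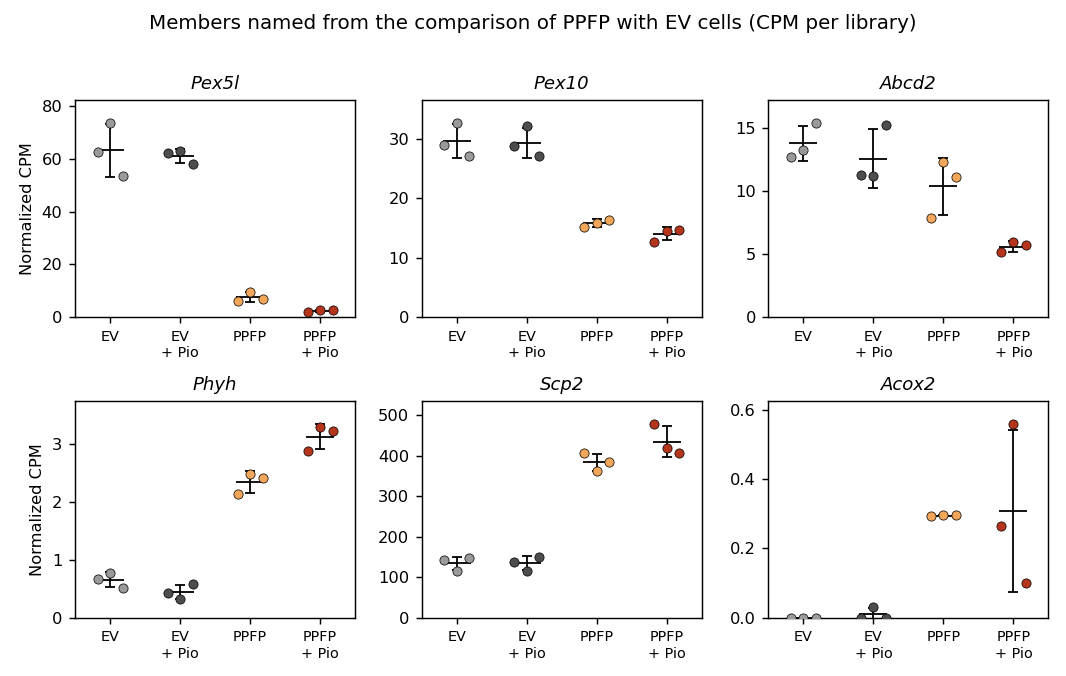
Normalized CPM per library (y axis, each panel on its own scale from 0) of Pex5l, Pex10, Abcd2, Phyh, Scp2 and Acox2 in the 4 groups, with the mean and SD of 3 libraries. The PPFP libraries of Pex5l and Pex10 lie below all EV libraries, those of Phyh and Scp2 above them, and Acox2 has at most 1 count in any EV library.

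Scp2, whose gene gives a peroxisomal thiolase and a lipid carrier protein, was at 142, 115 and 147 CPM in EV cells and 137, 116 and 150 CPM in EV cells with pioglitazone. It was at 407, 363 and 384 CPM in PPFP cells and 479, 419 and 407 CPM with pioglitazone. All PPFP libraries lay above all EV libraries. The difference was 2.90-fold without pioglitazone (log2 1.54 ± 0.11, adjusted p = 3.7e-05) and 3.30-fold with it (adjusted p = 3.2e-05). The response in PPFP cells was log2 0.18 ± 0.07 (SE), with adjusted p of 0.15 unpaired and 1e-04 paired. The counts are per gene, so the thiolase and carrier forms were not separated.

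Hsd17b4, the bifunctional hydratase and dehydrogenase for branched and very long chains, was at 124, 114 and 124 CPM in EV cells and 119, 114 and 124 CPM in EV cells with pioglitazone. It was at 149, 143 and 147 CPM in PPFP cells and 227, 203 and 199 CPM in PPFP cells with pioglitazone. The EV groups were alike in range, and the PPFP groups lay above them in the order of treatment. Pioglitazone raised it 1.43-fold (log2 0.52 ± 0.06, adjusted p = 0.0026). Between the lines without the drug it was 1.23-fold higher in PPFP cells (adjusted p = 0.013, and 0.056 without PPFP replicate 3). Ehhadh, the other bifunctional enzyme and a known PPARA target in liver, was at 1.39 ± 0.376 CPM in PPFP cells and 1.27 ± 0.308 CPM with pioglitazone, with overlap of all 4 groups (adjusted p = 0.84).

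Eci2, an isomerase that moves double bonds of unsaturated acyl-CoA, was at 93.4, 79.1 and 93.1 CPM in EV cells and 87.7, 88.7 and 92.8 CPM in EV cells with pioglitazone. It was at 144, 119 and 123 CPM in PPFP cells and 223, 183 and 183 CPM in PPFP cells with pioglitazone. All PPFP libraries lay above the EV libraries, and those with pioglitazone lay highest. Pioglitazone raised it 1.53-fold (log2 0.61 ± 0.10, adjusted p = 0.011), with differences of 0.58 to 0.63 on the log2 scale within the 3 experiments. Without PPFP replicate 2 or 3 in the untreated group the adjusted p reached 0.059. Decr2, the reductase of the same branch of the pathway, had a log2 response of 0.17 ± 0.08 (SE), with adjusted p of 0.20 unpaired and 0.01 paired. Crot, which converts the shortened acyl-CoA to carnitine esters for export, stayed between 72.2 and 85 CPM in all 12 libraries.

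Of the remaining oxidases and thiolases, those tested were not called higher with pioglitazone in PPFP cells. Acox3, an oxidase of branched chains, was at 22 ± 3.73 CPM in PPFP cells and 19.8 ± 2.65 CPM with pioglitazone (adjusted p = 0.60 unpaired and 0.044 paired, the paired log2 change being -0.15). Acaa1a, a thiolase, was 1.33-fold lower in PPFP than in EV cells (adjusted p = 0.034), a call lost without any 1 of EV replicates 1 and 2 and PPFP replicates 1 and 3, with adjusted p up to 0.12. It was also lost when libraries were paired by experiment (adjusted p = 0.07, and 0.081 with pioglitazone in both lines). Acaa1a and its near-identical copy Acaa1b can share reads, so their split is uncertain. Acaa1b had 3 to 8 counts per library and Acox2, the oxidase for bile acid precursors and branched chains, up to 15, and both were left out of the main tests for low counts. With no filter on low counts Acox2 was called between the lines without and with pioglitazone. Acox2 had 8, 8 and 7 counts in PPFP cells and 7, 15 and 3 with pioglitazone, against 0, 0 and 0 in EV cells and 0, 1 and 0 with pioglitazone. All PPFP libraries were thus above all EV libraries, at least 2.91-fold without pioglitazone, and the ratio with versus without the drug in PPFP cells was 1.02 (95% counting interval 0.553 to 1.87). For Acaa1b the ratio with versus without the drug in PPFP cells was 1.22 (0.559 to 2.74). These intervals cover counting error only.

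EV cells were compared to ask whether the drug acts on these genes without PPFP. No member was called, 0 of 33 tested by edgeR's quasi-likelihood test, beside 0% of all 10146 genes, and 0 members had an unadjusted p under 0.05. DESeq2 and the other alternatives also called 0. At that unadjusted level lay 0.158% of all genes. With libraries paired by experiment Pxmp4 alone of the 33 members passed it, beside 5.96% of all genes, at log2 -0.21 with an adjusted p of 0.65. The log2 fold changes lay between -0.57 (Phyh, from 10 to 23 counts) and 0.13 (Pex7).

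The difference between the responses of the 2 lines was tested as an interaction over all 12 libraries. It called 7 of 34 members (20.6%), 6 higher and 1 lower, beside 2.64% of all 10482 genes, 1.38% higher and 1.26% lower. The response of PPFP cells exceeded that of EV cells by log2 0.77 ± 0.09 for Abcd3 (SE, adjusted p = 0.0017), 0.73 ± 0.09 for Pex19 (adjusted p = 0.0021) and 0.53 ± 0.08 for Pex13 (adjusted p = 0.0053). Gnpat (0.69), Pxmp4 (0.69) and Hsd17b4 (0.53) were also called, with adjusted p of 0.0092, 0.02 and 0.013. The call of Pxmp4 was lost in 6 of 18 alternatives, each leaving out 1 library (replicate 1 of either EV group, replicates 2 and 3 of either PPFP group), with adjusted p up to 0.075. Pex5l was the member called lower, by log2 -1.57 ± 0.26 (adjusted p = 0.0088). For Pex16 and Eci2 the unpaired adjusted p were 0.052 and 0.055 and the paired ones 0.00011 and 9e-06. Pairing by experiment within each line called 14 of 34 members against 34.3% of all genes, adding Pex14, Abcd2, Phyh, Acox3 and Scp2 as well. The interaction could not be fitted usefully for Pex11a, which had 0 counts in every EV library.

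**Figure D4:**
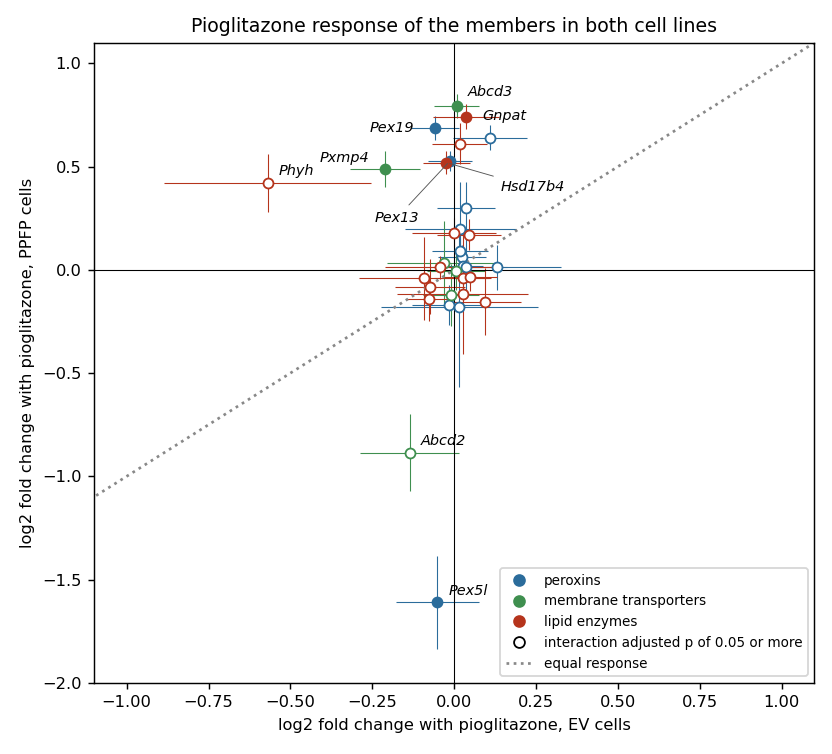
log2 fold change with versus without pioglitazone in EV cells (x axis) and PPFP cells (y axis) for the 33 members tested in both lines, with standard errors. Filled points have an interaction adjusted p under 0.05 and the dotted line marks an equal response. The filled points lie between -0.21 and 0.04 on the x axis and at 0.49 or more, or -1.61, on the y axis.

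The lines were compared without the drug to see what PPFP cells differ in before pioglitazone is added. Of 33 members tested 15 (45.5%) were called, 10 higher and 5 lower, beside 45.2% of all 10264 genes, 22% higher and 23.1% lower. The share of members called was thus close to that of all genes. Paired by experiment the counts were 13 of 33 members (39.4%) and 39.5% of all genes, the calls of Pex5 and Acaa1a being lost. By class, 3 peroxins were higher and 3 lower of 13 tested, 2 transport proteins higher of 6, and 5 enzymes higher and 2 lower of 14. The class medians lay between -0.03 and 0.07 on the log2 scale, beside 0.00 for all genes. Past a 2-fold difference stood Gnpat, Phyh and Scp2 on the higher side and Pex5l on the lower, where 7.27% and 7.31% of all genes lay.

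With pioglitazone in both lines 20 of the 33 members other than Pex11a (60.6%) were called, 13 higher and 7 lower, beside 52.7% of all 10291 genes, 26.3% higher and 26.4% lower. Paired by experiment it was 15 of 33 (45.5%), beside 44.2% of all genes, and the calls of Pex2, Pex3, Pex5, Acox3 and Acaa1a were lost, with adjusted p of 0.14, 0.064, 0.1, 0.076 and 0.081. In the unpaired fit 7 of these members stood past 2-fold higher, beside 9.3% of all genes, and 3 lower, beside 10.4%. The higher ones were Pex13, Pex19, Abcd3, Gnpat, Phyh, Scp2 and Eci2. They included 2.62-fold for Pex19, 2.36-fold for Abcd3, 2.31-fold for Pex13, 4.14-fold for Gnpat and 2.23-fold for Eci2, with adjusted p from 5.5e-06 to 6.3e-05. The lower ones were Pex5l, Pex10 and Abcd2 (2.19-fold, adjusted p = 0.001). This comparison shares libraries with both pioglitazone responses and with the interaction, and is not separate evidence from them. Pex2 and Pex3 were called here at 1.16-fold and 1.24-fold, and the call of Pex2 was lost in 12 of 14 alternatives (adjusted p 0.021 to 0.41) and that of Pex3 in 6 of 14 (0.0079 to 0.12).

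The rest of the peroxisome was counted from a list of 68 further genes, of which 62 had a row and 49 were tested in PPFP cells. With pioglitazone 15 (30.6%) rose and 6 (12.2%) fell, beside 7.63% and 7.13% of all genes, with a median of 0.08. Paired by experiment 30 of 49 (61.2%) were called, 21 higher and 9 lower, beside 51.6% of all genes. The 3 largest rises were those of Crat, a carnitine acetyltransferase (log2 1.26 ± 0.05, adjusted p = 0.00011), Hsdl2, a dehydrogenase-like protein (1.15 ± 0.04, 0.00011), and Acad11, an acyl-CoA dehydrogenase (1.14 ± 0.08, 0.00066). The genes that fell included Xdh, xanthine dehydrogenase (-0.78 ± 0.06, 0.00099), and Idh1, isocitrate dehydrogenase (-0.55 ± 0.09, 0.0084). In EV cells 0 of 50 of these genes were called by edgeR, unpaired or paired, and the number with an unadjusted p under 0.05 was 0 unpaired and 7 paired, the latter beside 5.96% of all genes. Genes of mitochondrial beta-oxidation, a list of 20 with 17 tested, were given for comparison. Of these 12 (70.6%) rose and 0 fell, beside 7.63% and 7.13% of all genes, and paired by experiment 15 (88.2%) rose, beside 27.7%. The median log2 change was 0.42, led by Acaa2 (1.21 ± 0.07), Acadm (0.86 ± 0.08) and Acadl (0.82 ± 0.05), with adjusted p of 0.00037, 0.0014 and 0.00037.

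Promoters of 6 members that rose are shown to let their sequence be read beside their response. RefSeq promoters of the GRCr8 rat assembly, from 250 bases before to 50 bases after the start, were found for 33 of the 36 members. Of the members that rose and are not printed, Pxmp4 and Hsd17b4 have GGGCGG or CCAAT in the 120 bases before the start, and Pex16 has neither. The bases printed are these 120 of 6 of the 9 members that rose, 5′ to 3′ on the gene's strand. In them GGGCGG (or CCGCCC, its other strand) and CCAAT (or ATTGG) are in capitals.
Pex11a, chr1:143096492-143096611, minus strand: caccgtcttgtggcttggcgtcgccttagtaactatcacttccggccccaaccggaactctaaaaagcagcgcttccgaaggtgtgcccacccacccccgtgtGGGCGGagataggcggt
Pex13, chr14:101822368-101822487, minus strand: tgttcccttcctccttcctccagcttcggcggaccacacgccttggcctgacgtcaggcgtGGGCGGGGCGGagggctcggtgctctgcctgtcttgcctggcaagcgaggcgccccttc
Pex19, chr13:87124578-87124697, plus strand: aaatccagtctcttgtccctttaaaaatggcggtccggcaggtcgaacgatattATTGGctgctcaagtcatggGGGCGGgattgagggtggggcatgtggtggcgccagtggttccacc
Abcd3, chr2:212590380-212590499, minus strand: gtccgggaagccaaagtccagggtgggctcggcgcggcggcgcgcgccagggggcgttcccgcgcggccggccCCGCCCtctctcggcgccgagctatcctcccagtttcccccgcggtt
Gnpat, chr19:69719587-69719706, plus strand: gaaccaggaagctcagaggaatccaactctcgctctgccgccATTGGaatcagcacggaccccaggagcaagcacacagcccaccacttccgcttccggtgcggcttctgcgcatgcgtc
Eci2, chr17:30075646-30075765, plus strand: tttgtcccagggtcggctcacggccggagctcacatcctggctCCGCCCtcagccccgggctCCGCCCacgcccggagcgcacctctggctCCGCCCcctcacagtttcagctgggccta

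GGGCGG was in the windows of 27 of 33 members (81.8%), against 34.9% of all 27457 promoters, in 8 of the 9 that rose (88.9%) and in 19 of the 24 others (79.2%). The letters were thus frequent in both sets, and the difference between them was not tested. The 9 include Pex11a. CCAAT was in 16 of 33 (48.5%), against 37.7% of all promoters, in 4 of the 9 that rose and in 12 of the 24 others. Both were searched on both strands, overlapping matches included, and were chosen after the sequences had been seen. The 27457 promoters were not limited to genes expressed in these cells, so the shares are not matched for expression. PPARG with its partner RXR is known to bind direct repeats of AGGTCA spaced by 1 base. Allowing 2 mismatches over the 12 fixed bases and both strands, such a repeat was in 1 of 33 members (3.03%), against 3.71% of all promoters, and in 0 of the 9 that rose. That member was Amacr, which had no call in any comparison. Its repeat is in capitals in the 50 bases shown.
Amacr, chr2:61673105-61673154, plus strand: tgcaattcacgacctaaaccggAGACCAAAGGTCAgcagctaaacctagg
These windows hold only the promoter, and enhancers farther away were not analysed here.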

How the data were processed

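RNA of the 12 libraries was sequenced as 50-nt reads, all libraries of an experiment on the same 2 lanes. Per the submitters' processing notes and methods, the authors aligned reads to rn4 with TopHat2 2.0.11 and deposited unnormalized counts per gene symbol from HTSeq 0.6.1p1 in the intersection-strict mode. Strand use is not given in the sources used here. Unused per-sample columns numbered 0. ChIP-seq peaks (rn4) were not used, because the gene tables at hand are of GRCr8. Protein sequences were not analysed here.

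Counts were filtered (filterByExpr), scaled (TMM) and tested with edgeR 4.0.16 (limma 3.58.1, R 4.3.3), glmQLFit and glmQLFTest, on the 6 libraries of each comparison, with Benjamini-Hochberg adjustment over all genes tested. The interaction used all 12. CPM used TMM over 12 libraries. SE is the absolute log2 fold change over the square root of F. Scripts were tested on simulated data. Alternatives were DESeq2 1.42.0, edgeR's exact test, RLE or no scaling, other filters, a replicate block and leaving out each library. Promoters and figures were handled in Python 3.11.15, numpy 2.4.6, pandas 2.3.3 and matplotlib 3.10.9.

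Members, lists and rules were chosen with earlier results of these data known. Every library's value is given for members called with pioglitazone in PPFP cells or in the interaction, or called past 2-fold between lines; of other lists the 3 largest changes called each way are named, except 1 gene that is not reported here. Replicate numbers mark the experiments: correlations of same-numbered deviations were 0.571 to 0.818 within PPFP cells and 0.615 to 0.827 within EV cells. Paired values stand beside members and counts whose calls they change.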

Additional observations from a re-analysis of the deposited data

Results flagged for a closer look

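The pioglitazone response differed between PPFP and EV cells for 7 members by the interaction test. The difference (PPFP minus EV, log2) was -1.57 for Pex5l, 0.53 for Pex13, 0.73 for Pex19, 0.77 for Abcd3, 0.69 for Pxmp4, 0.69 for Gnpat and 0.53 for Hsd17b4. Leaving out 1 library ended the call of Pxmp4 in 6 of 18 alternatives (adjusted p up to 0.075). Each group has 3 libraries, too few for a test of single deviating libraries.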

How the results depend on the processing

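Across the 54 calls of members there were 781 alternative values. Of these 718 kept direction and call, 63 kept direction with an adjusted p of 0.05 or more, and 0 reversed. The values include 13 of Pex11a between the lines with pioglitazone and 12 in its response in PPFP cells, with 0 weaker. Pex11a passed the low-count filter only through the libraries where it was high, so its values add nothing to these counts. Pairing libraries of the same experiment (replicate block) raised the calls with pioglitazone in PPFP cells to 8 of 14 peroxins (57.1%) and 8 of 14 enzymes (57.1%). The share of all genes called rose with it, from 14.8% to 51.6%. In the interaction the calls rose to 5 of 14 peroxins (35.7%) and 6 of 14 enzymes (42.9%), and the share of all genes from 2.64% to 34.3%. Peroxin counts in this section include Pex11a. Between the lines same-numbered libraries share an experiment and lanes, but their deviations were not alike (correlations -0.408 to 0.346). In those comparisons the block called 13 of 33 members (39.4%) without pioglitazone, beside 39.5% of all genes. With pioglitazone the block called 15 of the 33 members other than Pex11a (45.5%), beside 44.2%.

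Leaving out 1 library gave 1 to 3 transport proteins called with pioglitazone in PPFP cells (main 3) and 1 to 3 in the interaction (main 2). The low values came where the calls of Abcd2 or Pxmp4 were lost. The other class counts were 4 to 5 peroxins and 2 to 3 enzymes with pioglitazone, and 3 to 4 and 2 to 3 in the interaction. Between the lines they were 4 to 6 peroxins (main 6) and 5 to 7 enzymes (main 7) without pioglitazone. With it they were 6 to 8 peroxins (main 9) and 6 to 8 enzymes (main 8), so each removal lowered that peroxin count.

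Scaling by library size alone moved the median of all genes between the lines with pioglitazone from 0.012 to -0.125 and the class medians with it, to -0.09 for peroxins, 0.092 for transport proteins and -0.056 for enzymes. Depth limits Pex11a, Acox2 and Acaa1b, which had at most 21 counts in a library.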

Other observations

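The following 2 genes of the wider peroxisome list were chosen after their values were seen. Cat, catalase, which removes the peroxide that peroxisomal oxidases make, was at 358, 370 and 372 CPM in PPFP cells and 567, 602 and 579 CPM with pioglitazone (log2 0.67 ± 0.05 (SE), adjusted p = 0.00075). Ech1, an isomerase of unsaturated chains, was at 64.7, 77.1 and 75.8 CPM and 131, 147 and 146 CPM (0.97 ± 0.10, 0.0018). In EV cells their log2 responses were 0.0079 and 0.0248.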
